A study of Mus musculus with 2 samples.

Results

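The keratin genes were taken as all protein-coding genes of the mouse annotation whose symbol is Krt followed by a digit, which leaves out the keratin-associated proteins (Krtap). There were 53 such genes among 21938 protein-coding genes. Of these, 27 lie in the type I cluster on chromosome 11 and 26 in the type II cluster on chromosome 15, and none lay elsewhere. The type II cluster ends with Krt18, which is a type I keratin. Their chromatin was assayed by DNase-seq, in which the nuclease DNase I cuts DNA that is not covered by nucleosomes and the cut ends are sequenced. The tissue was urinary bladder of 14-day-old male mice of the strain B6CASTF1/J, the first-generation hybrid of C57BL/6J and CAST/EiJ. The 2 libraries form 1 group: the label of replicate 1 names a male, and replicate 2 was pooled from 3 males. The group has no treatment, edited allele or second condition, so the libraries could be compared only with each other. No p-values are given for differences between genes.

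Keratins are the intermediate filament proteins of epithelial cells. A filament is built from pairs, each joining an acidic type I chain to a basic type II chain, and the filaments are anchored at desmosomes and hemidesmosomes. The pair made tells epithelia apart: Krt8 with Krt18 in simple epithelia, Krt5 with Krt14 in basal layers, Krt1 with Krt10 above them in epidermis, and hard keratins in hair. The bladder is lined by urothelium, a stratified epithelium with a basal layer, intermediate cells and a superficial layer of umbrella cells, of which Krt20 is a known marker.

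The deposited peak lists held 139821 peaks in replicate 1 and 82225 in replicate 2, and 73164 regions had overlapping peaks of both libraries. Read totals were not given in the sources used here, so the depth is unknown. Each peak carries a signal, the authors' density for that peak, whose values were whole multiples of a step that was 1.54 times as large in replicate 2 as in replicate 1. Over the shared regions the median signal was 1.28 in replicate 1 and 0.975 in replicate 2. After each library was divided by its median, the log2 ratio of the libraries over all shared regions had an SD of 0.42, which is the yardstick used below for differences between libraries. A promoter is called open here when a region with peaks of both libraries lay within 1 kb of any annotated transcription start site (TSS) of the gene. The label of the tissue was checked against marker genes: 9 of 9 urothelial promoters, 5 of 5 smooth muscle promoters, 3 of 3 stromal promoters and 4 of 4 mesothelial promoters were open, and 1 of 3 epidermal ones, where 66.1% of all protein-coding promoters were open. Lists this short do not tell the tissues apart by their counts. In whole tissue, fewer cells of a type and lower accessibility in each cell cannot be told apart.

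Of the 53 keratin genes, 14 had an open promoter, which is 26.4%, where 66.1% of all protein-coding genes did. A further 7 keratins had a peak in replicate 1 alone, 1 had a peak in replicate 2 alone and 31 had none. The type II cluster held 10 open genes of 26 (38.5%) and the type I cluster 4 of 27 (14.8%). With only the principal TSS of each gene considered, an alternative chosen after seeing the data, 10 keratins were open, against 62.4% of all protein-coding genes. The 4 that were lost, Krt10, Krt33a, Krt1 and Krt79, had their shared peak within 1 kb of the start of another annotated transcript, inside the gene. The open keratin promoters were weak in comparison with other open promoters: their median signal was 1.93, while that of all 14500 open protein-coding promoters was 4.61, with quartiles of 2.15 and 7.79. The strongest keratin, Krt10, stood at the 52.3 percentile of open promoters.

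**Figure D1:**
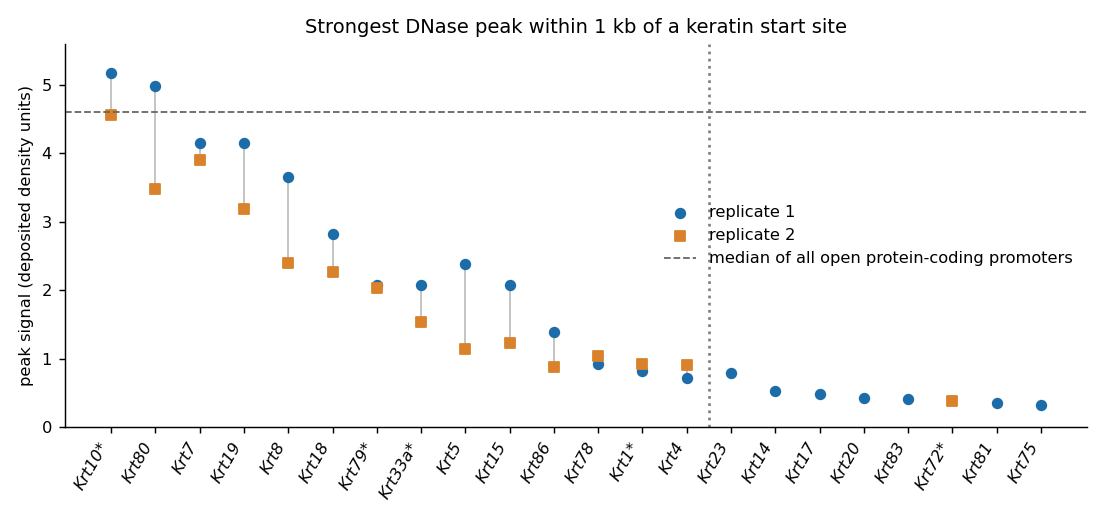
Signal of the strongest DNase peak within 1 kb of a TSS (vertical axis, deposited density units) for the 22 keratin genes with a promoter peak. Replicate 1 is shown as circles and replicate 2 as squares. An asterisk marks a gene whose peak reached within 1 kb only of a start other than the principal one. The dotted line separates genes with a peak in both libraries (left) from those with 1, and the dashed line is the median of 4.61 over all open promoters. The 14 open genes run from 5.18 and 4.56 at Krt10 down to 0.713 and 0.903 at Krt4, and the genes with a peak in 1 library alone are all below 0.8.

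The open keratins were unevenly spread over the roles known for the family. Of the 6 keratins of simple epithelia 4 were open (66.7%) and of the 3 basal keratins 2 (66.7%), close to the 66.1% of all protein-coding genes. Of the 13 keratins of suprabasal or specialised stratified epithelia 6 were open (46.2%). None of the 5 keratins grouped here under activated or wounded epithelium was open. None of the 8 of the inner root sheath and companion layer was open, and 2 of the 16 of the hair shaft were. Taken as a whole, 2 of 24 hair and root sheath keratins were open (8.33%), and 12 of the other 29 (41.4%). Both shares lie below that of all protein-coding genes. Krt222 and Krt90, which belong to none of these roles, had no peak.

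**Figure D2:**
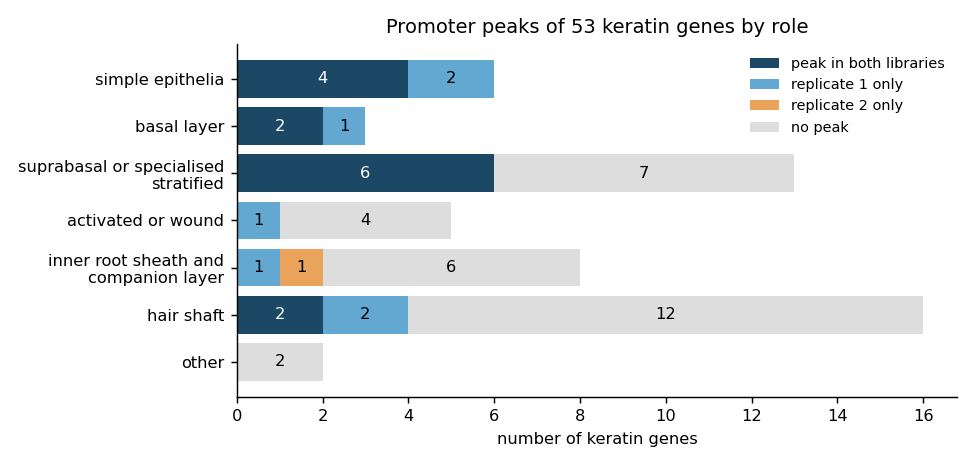
Number of keratin genes (horizontal axis) in each role by the libraries in which a promoter peak was found. Every simple and basal keratin had a peak in at least replicate 1, while 12 of 16 hair shaft keratins and 6 of 8 root sheath keratins had none.

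Among the simple epithelial keratins, the promoters of Krt7, Krt19, Krt8 and Krt18 were open with a peak at the principal TSS. Krt7, the type II keratin typical of ducts and urothelium, had a signal of 4.15 in replicate 1 and 3.90 in replicate 2 (mean 4.03 ± 0.176, SD, n = 2), with the region centred 32 bp upstream of the TSS. Krt19, a type I keratin with almost no tail domain, had signals of 4.16 and 3.19, and a weaker second region 800 bp into the gene had signals of 1.68 and 1.31. Krt8 had signals of 3.66 and 2.40 and its type I partner Krt18 had signals of 2.82 and 2.26. By the mean of the libraries Krt7 was highest and Krt18 lowest, but Krt7 and Krt19 differed by less than the spread between the libraries of Krt19. Krt20, the umbrella cell keratin, had a peak of 0.432 in replicate 1, centred 29 bp upstream of its TSS, and none in replicate 2. Its lowest false discovery rate (FDR) in the deposited track was 0.00478 in replicate 1 and 0.0394 in replicate 2, over 7.95% and 0.900% of the promoter bases. Krt23 had a peak of 0.786 at its TSS in replicate 1, with 31.3% of its promoter bases at an FDR of 0.05 or lower, and no base at that level in replicate 2. Of the keratins with a promoter peak in 1 library alone, Krt23 had the highest signal.

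All 3 basal keratins had a peak, and in the open ones the strongest region lay upstream of the TSS region. Krt5, the type II keratin of basal layers, had a region at its TSS with signals of 0.989 and 1.33, and a region centred 1014 bp upstream with signals of 2.39 and 1.14. The libraries therefore ranked the pair of Krt5 regions in opposite order. Krt15, a type I basal keratin, had a TSS region with signals of 1.32 and 1.34 and a region 822 bp upstream with signals of 2.08 and 1.23. Its upstream region was the higher in replicate 1 and the lower in replicate 2. Krt14, the usual partner of Krt5, had a peak of 0.531 in replicate 1, centred 152 bp upstream of its TSS, and neither a peak nor a base at an FDR of 0.05 or lower in replicate 2. Relative to the library medians, replicate 1 was the higher at the strongest region of Krt5 by 0.67 and of Krt15 by 0.36 on the log2 scale, both less than 2 times the SD of 0.42 over all shared regions.

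The suprabasal and specialised group held both the strongest and the weakest open keratins. Krt80, a type II keratin of stratified epithelia at the outer end of the type II cluster, had signals of 4.98 and 3.48 (mean 4.23 ± 1.06, SD, n = 2), in a region centred 368 bp upstream of its TSS. Krt10, the type I keratin of the suprabasal epidermis, had signals of 5.18 and 4.56 in a region 3314 bp downstream of its principal TSS, at the start of a shorter transcript. The principal TSS of Krt10 had no peak. Krt1, its type II partner, also lacked a peak at the principal TSS, and its region inside the gene had signals of 0.828 and 0.919. Krt79, a keratin of sebaceous gland and hair follicle openings, had signals of 2.08 and 2.03, 10454 bp downstream of the principal TSS and in an exon. The centre of that Krt79 region lay 1101 bp from the nearest annotated start, and only its edge reached the window. Krt4, the mucosal type II keratin, had a TSS region with signals of 0.713 and 0.903 and a second one 503 bp upstream with signals of 0.797 and 0.576. Krt13, the type I partner of Krt4, had no peak in either library. Krt78 had signals of 0.927 and 1.04 in a region whose centre lay 1260 bp into the gene and whose edge reached the window. Krt2 and Krt9 of epidermis, Krt12 of cornea, Krt76 of oral mucosa, and Krt24 and Krt77 had none.

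Promoters of the remaining roles carried at most weak peaks. Of the genes grouped here as wound keratins, Krt17 had a peak of 0.479 in replicate 1 alone, and Krt6a, Krt6b, Krt16 and Krt42 had none. The place of Krt42 in this group was assumed. Part of this group lies in near-copies: of the 32-base words within 1 kb of the principal TSS, 65.7% occur once in the genome at Krt6b, 66.0% at Krt16 and 66.6% at Krt6a, where the median keratin had 96.5%. The handling of reads that match several places was not given in the sources used here, so the absence of a peak at these 3 genes is uncertain. Of the root sheath keratins, Krt75, a companion layer keratin, had a peak of 0.318 in replicate 1 alone, and Krt72 had one of 0.384 in replicate 2 alone, at an internal start. The other 6, Krt25, Krt26, Krt27, Krt28, Krt71 and Krt73, had none. Of the hair shaft keratins, Krt33a had signals of 2.07 and 1.53 at an internal start 2162 bp into the gene, and Krt86 had signals of 1.39 and 0.879 in a region 333 bp upstream of its TSS. Krt81 and Krt83, neighbours of Krt86 on chromosome 15, had peaks of 0.354 and 0.411 in replicate 1 alone. Sequence at Krt81 and Krt86 is also shared with copies, with 67.5% and 73.4% of words unique. Among hair shaft keratins without a peak the share was 81.3% at Krt33b, 82.2% at Krt34, 82.3% at Krt87 and 86.5% at Krt31. Their missing peaks are less certain for the same reason. At Krt33a the share was 83.1%, but its open region lay outside the stretch in which words were counted.

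Set out by filament pairs, Krt8 and Krt18 were both open at the principal TSS, in both libraries. Of the basal pair, Krt5 was open and Krt14 had a peak in replicate 1 alone. Of the mucosal pair, Krt4 was open and Krt13 had no peak. Of the epidermal pair, Krt1 and Krt10 were each open only at an internal start. Across all 14 open keratins the log2 ratio of the libraries, relative to their medians, ran from -0.73 at Krt4 to 0.67 at Krt5 with a median of -0.04, and none was beyond 2 SD of all shared regions.

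Footprints, short stretches inside accessible DNA where cuts are fewer and which the authors called in each library, and the FDR track gave further readouts at the same promoters. Keratin promoters held 87 footprints in replicate 1 and 41 in replicate 2, and 23 of the former overlapped one of the latter. A footprint was found at 18 of the 53 genes in replicate 1 and 12 in replicate 2, where 69.2% and 65.2% of all protein-coding promoters had one. A shared footprint was found at 10 of the 53 genes, where 61.9% of all protein-coding promoters had one, and 34 genes had none in either library. The most shared footprints stood at Krt10 and Krt80, with 4 each, and at Krt7 and Krt18, with 3 each. Krt8, although open with signals of 3.66 and 2.40, had 7 footprints in replicate 1 and 1 in replicate 2 and none that overlapped. Bases at or below an FDR of 0.05 were found in 22 keratin promoters in replicate 1 and 15 in replicate 2, where 71.3% and 67.6% of all promoters had such bases, and 30 keratin promoters had none in either library. In replicate 1 their share of the promoter was largest at Krt5, with 52.9% against 21.3% in replicate 2, and in replicate 2 it was largest at Krt10, with 24.3% against 25% in replicate 1. Within the 31 genes without a peak, Krt222 was the only gene with a base at that level, with a lowest FDR of 0.0431 in replicate 1.

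Sequences of open keratin promoters are shown to place the footprints. The first is the accessible region upstream of Krt80 (chr15:101370401-101370660, minus strand), read from the RefSeq assembly GRCm38.p6, which is mm10. The others are stretches of 120 bases just before the starts of Krt18 (chr15:102028060-102028179, plus strand) and Krt5 (chr15:101712906-101713025, minus strand), from RefSeq's GRCm38.p6 promoters. Capitals mark bases inside footprints of both libraries. All sequences shown are the C57BL/6J reference, and the CAST/EiJ allele of the hybrid is not shown.
Krt80 promoter region: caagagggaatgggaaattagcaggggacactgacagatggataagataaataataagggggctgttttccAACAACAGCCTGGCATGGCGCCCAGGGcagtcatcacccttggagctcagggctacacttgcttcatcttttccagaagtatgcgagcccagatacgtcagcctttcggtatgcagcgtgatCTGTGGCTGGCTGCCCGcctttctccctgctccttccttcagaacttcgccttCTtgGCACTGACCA
Krt18 promoter: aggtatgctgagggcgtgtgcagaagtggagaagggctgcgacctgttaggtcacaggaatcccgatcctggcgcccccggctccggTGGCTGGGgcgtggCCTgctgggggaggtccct
Krt5 promoter: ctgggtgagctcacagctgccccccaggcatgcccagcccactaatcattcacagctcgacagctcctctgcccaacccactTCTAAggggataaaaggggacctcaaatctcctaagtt

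In the Krt80 region 56 of 260 bases lay in footprints of both libraries, in 4 runs, and the longest run of 27 bases held 8 of the 9 letters of a match to the TFAP2 consensus GCCNNNGGC. In the Krt18 stretch 11 of 120 bases were footprinted in both, and 2 letters of a KLF match, GGGCGTGG, fell inside. In the Krt5 stretch 5 of 120 bases were footprinted in both. A match is a description of the letters and does not show which protein was bound.

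Promoter sequences of RefSeq, from 250 bases before to 50 bases after each start, were matched for 36 of the 53 keratin genes (37 promoters). The TATA letters TATAAA stood 38 to 22 bases before the start, in the direction of the gene, in 12 of the 37 (32.4%), and in 1.91% of 32851 promoters of all genes. The carriers were Krt10, Krt12, Krt20, Krt25, Krt26, Krt28, Krt31, Krt32, Krt34, Krt40, Krt73 and Krt76. None of the 5 matched promoters with a shared peak at the principal TSS carried these letters at that place. The Krt8 promoter held TATAAA elsewhere in its window, searched on both strands. Variants, such as gataaaa in the Krt5 stretch shown above, were not counted, and 5 promoters are few. The other keratins open at the principal TSS, Krt4, Krt15, Krt19, Krt80 and Krt86, had no matched promoter, so they were not examined for these letters. The SP1 consensus GGGCGGG, searched on both strands, was present in 1 of the 37 keratin promoters (2.70%), at Krt7, and in 25.6% of all promoters. Matches to AP-1 (TGANTCA) were in 5.41% of keratin promoters and 7.81% of all. The consensus of GATA factors, AGATAA, was in 27.0% and 11.2%.

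Keratin promoters were poor in CpG. The ratio of observed to expected CpG within 500 bp of the principal TSS had a median of 0.323 in keratins and 0.571 in all protein-coding genes. None of the 53 keratins exceeded a ratio of 0.6, which 47.5% of all protein-coding genes did. Among promoters with a ratio between 0.2 and 0.4, 7 of 34 keratins were open at the principal TSS and 30.4% of all genes. Between 0.4 and 0.6, 3 of 14 keratins were open and 75.5% of all genes. Below 0.2, none of 5 keratins was open and 7.57% of all genes. Whether CpG content accounts for the low share of open keratins was not tested.

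**Figure D3:**
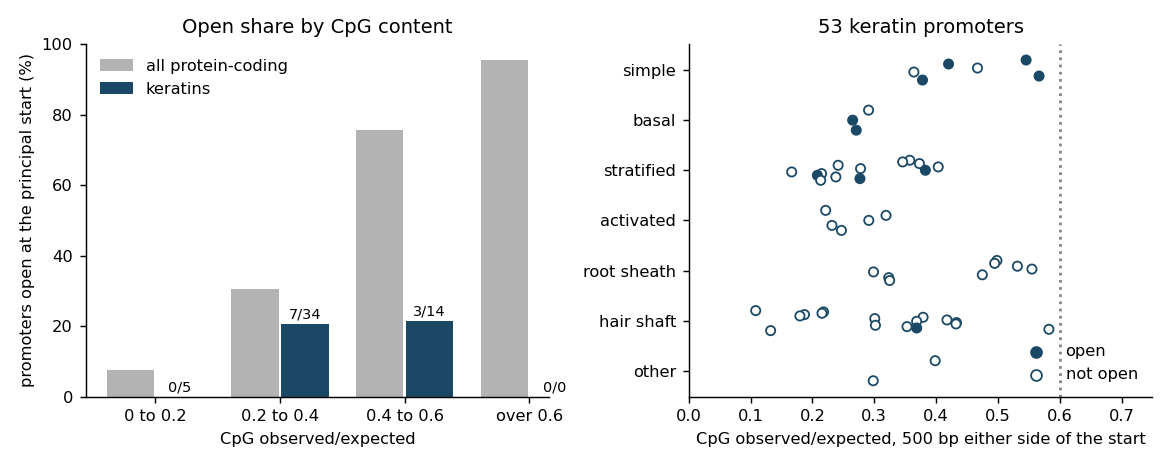
Left, percent of promoters open at the principal TSS (vertical axis) in bins of CpG observed/expected, for all protein-coding genes and for keratins, with the keratin counts above the bars. Right, the ratio of each of the 53 keratin promoters (horizontal axis) by role, filled where open and with the dotted line at 0.6; every keratin, open or not, lies below that line.

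Across the clusters, all accessible regions together were denser than in the genome as a whole and sparser than in the sequence on either side. The type I cluster, from 10 kb before the first to 10 kb after the last keratin gene, spans 1057 kb and held 40 shared regions, which is 3.78 per 100 kb. The type II cluster spans 705 kb and held 57, which is 8.09 per 100 kb. The whole genome had 2.68, and the 500 kb on each side had 12.7 for either cluster. With the authors' stricter peak list the type I cluster had 1.89 and the genome 1.75, and the type II cluster had 6.10. Regions more than 1 kb from any protein-coding TSS gave 3.03 per 100 kb in the type I cluster and 6.39 in the type II cluster, with 7.20 and 7 in the surrounding sequence and 1.77 in the genome. Accessible regions at protein-coding starts were at 0.757 and 1.70 per 100 kb, with 5.50 and 5.70 around the clusters and 0.913 in the genome. At starts the type I cluster thus lay below the genome. The clusters are dense in genes, with 6.53 and 4.12 protein-coding genes per 100 kb, 3.7 and 3.6 around them and 0.805 in the genome. Set against gene number, both clusters were low at starts: 8 regions for 69 genes in type I, 12 for 29 in type II and 24886 for 21938 in the genome. The libraries differed in number: 33 further regions of the type I cluster and 57 of the type II cluster had a peak in replicate 1 alone, and 1 and 3 in replicate 2 alone.

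The type I cluster was interrupted by a stretch of 468 kb between Krt40 and Krt33a that holds genes of keratin-associated proteins, which cross-link hair keratins. It had 3 shared regions, or 0.641 per 100 kb, and without it the type I cluster had 6.28. None of the 57 Krtap genes of the genome had an open promoter, where 66.1% of all protein-coding genes did, and 3 had a peak in replicate 1 alone. Unique 32-base words were counted at keratin genes only, so how certain the missing peaks of Krtap genes are is unknown. In the type II cluster, the 102 kb between Krt75 and Krt6b, 2 neighbouring keratin genes, held no shared region and 5 peaks of replicate 1 alone.

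**Figure D4:**
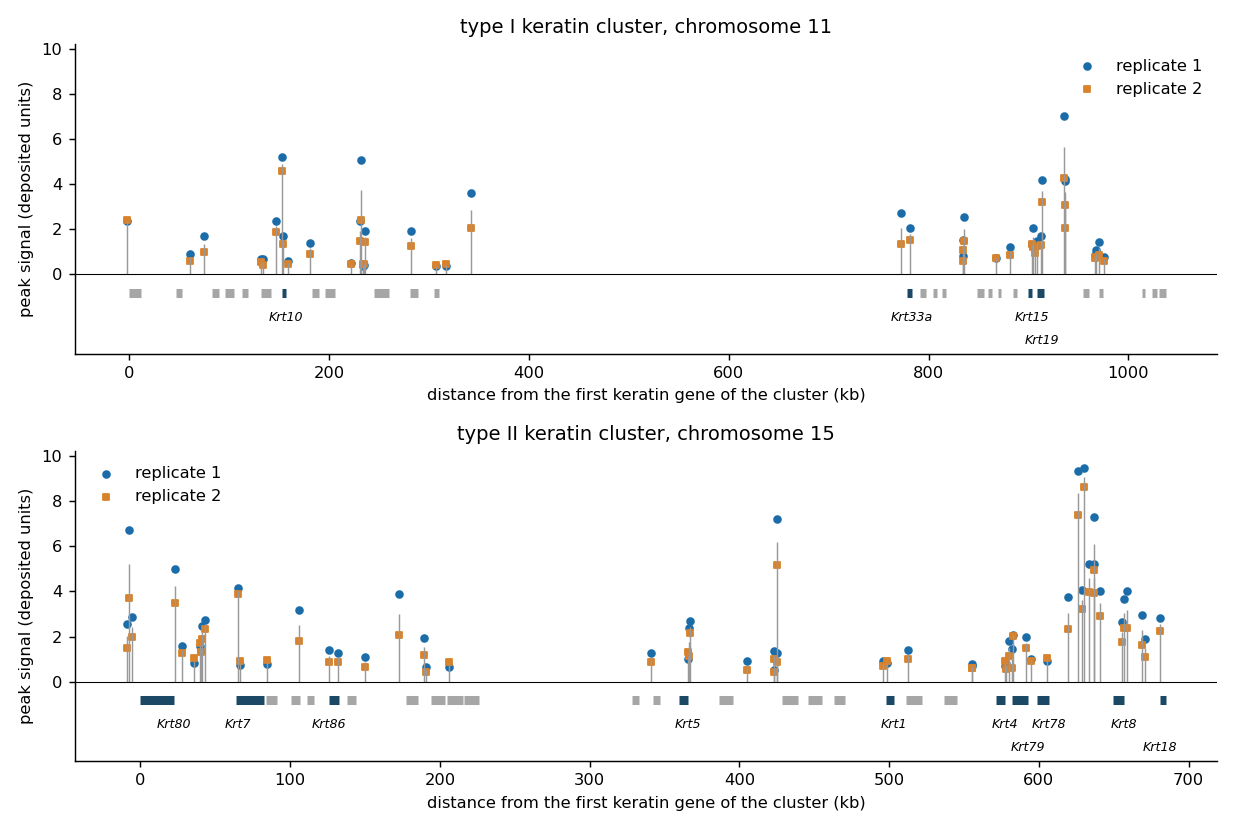
Signal of every shared region (vertical axis, deposited density units) along each keratin cluster, by distance in kb from the first keratin gene; circles are replicate 1, squares replicate 2, grey lines rise to their mean, and bars below are the keratin genes, dark where the promoter was open. The signals rise highest in the type II cluster between Krt78 and Krt8, to 9.47 and 8.62, and the stretch between Krt40 and Krt33a in the type I cluster is nearly empty.

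Most accessible regions of the clusters did not lie at a gene start. Of the 97 shared regions, 77 had no protein-coding TSS within 1 kb (79.4%, where 66.0% of all shared regions of the genome had none). Of the 97, 52 were intergenic and 72 held a footprint shared by the libraries. For these counts no share over all shared regions was available, so whether they are unusual is unknown. The strongest keratin promoters with a peak at the principal TSS reached 4.98 in replicate 1 (Krt80) and 3.90 in replicate 2 (Krt7). Of the 77 distal regions, 7 exceeded these maxima in both libraries, 6 in the type II cluster and 1 in the type I cluster. The maxima leave out Krt10, open only at an internal start with signals of 5.18 and 4.56, and fewer regions exceeded it. The type I region, with signals of 7.01 and 4.28, did not exceed Krt10 in replicate 2. The median mean signal of the distal regions was 1.34 and that of the 10 principal promoters 2.15, the latter taken at the strongest region of each gene. With every shared region at a keratin promoter counted, the promoter median was 1.65. The clusters differed in this: the distal and promoter medians were 1.14 and 1.65 in the type I cluster, and 1.55 and 1.46 in the type II cluster.

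The 42.4 kb between Krt78 and Krt8 held the strongest group. There, 8 shared regions lay within 21.5 kb, each with a mean signal above 2, downstream of Krt8 and upstream of Krt78. The strongest (chr15:101977421-101977680) had signals of 9.47 and 8.62 (mean 9.04 ± 0.599, SD, n = 2), which is the 96.8 percentile of all shared regions. It lies 23.3 kb upstream of the TSS of Krt78 in intergenic sequence and held 6 shared footprints. The second (chr15:101973741-101973940) had signals of 9.32 and 7.38 and 4 shared footprints. The next strongest (chr15:101984401-101984580), 19.99 kb from the TSS of Krt8, had signals of 7.28 and 4.93. In both libraries each of these 3 regions exceeded every keratin promoter. The other 5 regions of this interval had signals between 3.76 and 5.21 in replicate 1, and between 2.33 and 3.97 in replicate 2. Between Krt8 and Krt18, which are transcribed away from each other, 3 further shared regions had signals between 1.90 and 3.999 in replicate 1, and between 1.09 and 2.38 in replicate 2. The highest of these, 2.05 kb upstream of Krt8, exceeded the Krt8 promoter in replicate 1 and not in replicate 2.

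**Figure D5:**
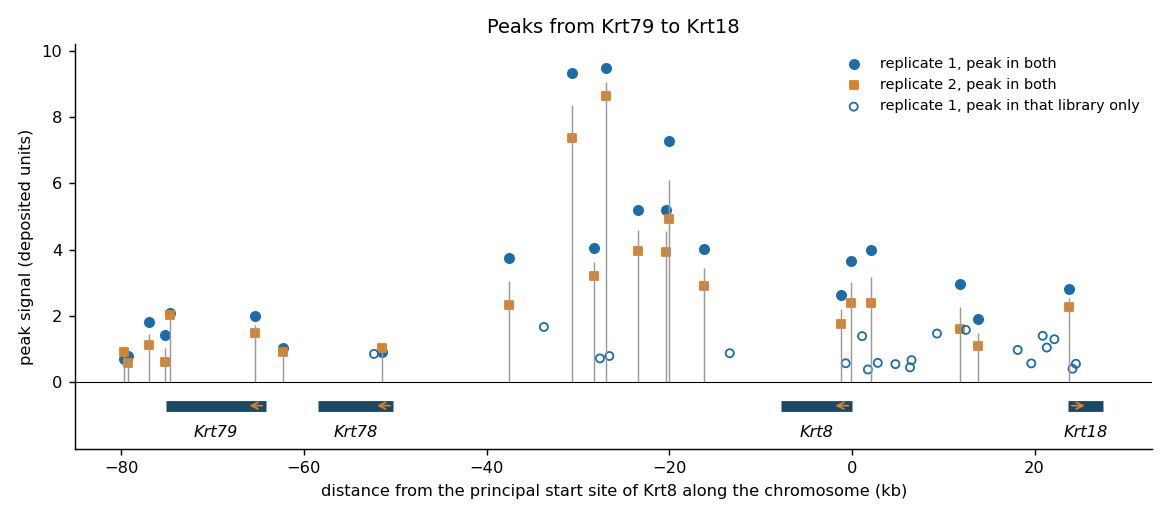
Signal of each peak region (vertical axis, deposited density units) from Krt79 to Krt18, by distance in kb from the principal TSS of Krt8; filled symbols are regions with peaks of both libraries, open circles peaks of replicate 1 alone, and bars are genes with arrows for the direction of transcription. The 8 shared regions between Krt78 and Krt8 include the highest at 9.47 and 8.62, above the promoters of Krt8 at 3.66 and 2.40 and Krt18 at 2.82 and 2.26.

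Other strong distal regions stood near the simple keratins of the type I cluster and in the middle of the type II cluster. The strongest of the type I cluster (chr11:100168161-100168360) had signals of 7.01 and 4.28 and lies 22.1 kb upstream of the TSS of Krt19, in intergenic sequence. It is the first of 3 regions within 1.52 kb. The others had signals of 4.23 and 3.09, and of 4.13 and 2.08. All 3 lie in the gap before Krt9, which had no promoter peak. Between Krt20 and Krt23, whose promoters had a peak in replicate 1 alone, 6 shared regions were found. The strongest of these (chr11:99464901-99465080) had signals of 5.08 and 2.39, 26.8 kb upstream of Krt20. A neighbour 25.2 kb upstream of Krt20 had 2.37 and 1.46, and one nearer Krt23 had 1.93 and 1.41. The gap between these genes was thus accessible in both libraries while the starts of both genes had peaks in replicate 1 alone. Krt20 borders the gap with its start and Krt23 with its 3' end. In the type II cluster, a region between the root sheath keratins Krt71 and Krt72 (chr15:101772781-101772980) had signals of 7.19 and 5.16, although neither gene had an open promoter. A region 30.4 kb downstream of the TSS of Krt80 had signals of 6.70 and 3.70 and lies in an intron of the antisense noncoding gene Gm35853. Next to Krt10, a region 4.88 kb upstream of Krt28 had signals of 2.37 and 1.89, and a region in the Krtap stretch, 31.2 kb upstream of Krt40, had signals of 3.61 and 2.08. Near the hair keratins, a region 11.2 kb from the TSS of Krt33a had signals of 2.70 and 1.37, and a region 17.3 kb upstream of Krt31 had 2.54 and 1.503. Of the 97 regions, 1 had a library ratio beyond 2 SD of all shared regions, 0.85 on the log2 scale, next to Krt4.

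The sequences of the 4 strongest distal regions of the type II cluster and the 2 strongest of the type I cluster follow, from GRCm38.p6 (mm10), plus strand, with the coordinates given above. Capitals again mark bases inside footprints of both libraries.
Krt78 to Krt8, strongest region: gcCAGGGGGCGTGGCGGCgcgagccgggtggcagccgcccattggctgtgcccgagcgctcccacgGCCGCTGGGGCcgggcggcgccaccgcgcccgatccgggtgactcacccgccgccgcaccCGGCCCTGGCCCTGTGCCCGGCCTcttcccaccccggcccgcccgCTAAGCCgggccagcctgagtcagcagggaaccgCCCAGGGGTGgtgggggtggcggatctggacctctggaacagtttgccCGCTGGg
Krt78 to Krt8, second region: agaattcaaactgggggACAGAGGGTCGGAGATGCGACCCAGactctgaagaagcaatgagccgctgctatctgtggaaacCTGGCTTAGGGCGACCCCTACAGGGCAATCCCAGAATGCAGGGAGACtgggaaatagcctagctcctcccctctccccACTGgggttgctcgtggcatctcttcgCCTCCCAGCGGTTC
Krt78 to Krt8, next strongest region: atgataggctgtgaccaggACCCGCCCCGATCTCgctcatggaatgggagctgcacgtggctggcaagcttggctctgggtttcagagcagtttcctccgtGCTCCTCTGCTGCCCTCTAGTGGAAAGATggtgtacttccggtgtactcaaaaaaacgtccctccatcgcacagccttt
Krt71 to Krt72: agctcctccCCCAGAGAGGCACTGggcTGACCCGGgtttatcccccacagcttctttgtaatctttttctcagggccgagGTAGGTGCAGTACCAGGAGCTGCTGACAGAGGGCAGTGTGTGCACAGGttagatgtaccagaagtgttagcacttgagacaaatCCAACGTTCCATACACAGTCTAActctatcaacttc
Krt19 to Krt9: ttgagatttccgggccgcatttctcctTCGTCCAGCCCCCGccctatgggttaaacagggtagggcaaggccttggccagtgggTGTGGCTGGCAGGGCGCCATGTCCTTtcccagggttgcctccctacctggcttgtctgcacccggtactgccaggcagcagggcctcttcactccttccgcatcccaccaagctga
Krt20 to Krt23: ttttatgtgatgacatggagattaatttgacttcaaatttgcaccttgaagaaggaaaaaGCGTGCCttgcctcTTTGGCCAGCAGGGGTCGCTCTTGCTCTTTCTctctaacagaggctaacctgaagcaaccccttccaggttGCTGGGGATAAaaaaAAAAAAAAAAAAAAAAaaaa

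The strongest region was rich in G and C, 78.1% of its 260 bases, and 74 bases lay in footprints of both libraries, in 6 runs. Its first run of 16 bases contained the KLF match GGGCGTGG whole. The AP-1 matches TGACTCA and TGAGTCA of the same region lay outside these runs. In the second region 90 of 200 bases lay in shared footprints, with a longest run of 47 bases, and in the Krt71 to Krt72 region 94 of 200 bases did, with a longest run of 48. In the next strongest region the longest run, of 29 bases, held all 12 letters of a match to the CTCF consensus, read as GCCCTCTAGTGG on this strand. CTCF is a zinc finger protein known for its role at chromatin loop anchors and boundaries. The consensus searched was CCA, any pair of bases, AG, any pair of bases and GGC.

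Matches to that CTCF consensus, searched on both strands, were in 16 of the 97 shared regions of the clusters (16.5%), 8 in each cluster. All 16 were distal regions, so that the share was 20.8% of the 77 distal regions and none of the other 20. Counted in windows of 200 bp at the centre, the cluster share was the same, and 14.4% of all 48278 distal shared regions of the genome held such a match. Of the 17 matches in the clusters, 14 lay for at least 50% of their length in a shared footprint (82.4%), while footprints covered 8.70% of the bases of these regions. In the genome 72.5% of 8557 such matches did, with 8.42% of bases covered. Of the 20 strongest distal regions, 10 in each cluster, 7 held a CTCF match and in all 7 it was footprinted. These included the 3 regions between Krt78 and Krt8 that are nearest to Krt8, the region furthest from Krt19 in its group of 3, the region next to Krt28 and the region upstream of Krt40. Of the other 57 distal regions, 9 held a CTCF match (15.8%), and in 7 of them it was footprinted. Distal regions of the genome with similar signals were not counted for comparison.

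The other consensus letters differed in how often they were footprinted. AP-1 (TGANTCA) had 20 matches in the shared regions of the clusters and 1 was footprinted in both libraries (5%), as in the genome at 4.204%. TEAD (GGAATG) had 16 matches with 1 footprinted (6.25%, and 6.35% in the genome), and none of the 9 matches to the GATA letters AGATAA was footprinted, with 3.16% in the genome. SP1 (GGGCGGG) had 6 of 14 footprinted (42.9%), TFAP2 (GCCNNNGGC) 5 of 18 (27.8%) and KLF (GGGNGTGG) 3 of 15 (20%), all above the covered share of bases, and the genome-wide shares were 35.1%, 13.8% and 22.9%. The core letters of the p63 site, ACATGTC, were in 6 of the 97 regions (6.19%) and, in windows of 200 bp, in 1.48% of all shared regions. With windows of 100 bp they were in 3 of the 97 and in 0.767% of all. None of their 8 matches was footprinted, with 4.91% in the genome. The GRHL consensus AACNGGTT was in 1 of the 97 regions and in 2.12% of all shared regions. These counts are small, and genes and regions are not replicates.

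The promoters of lists of genes related to keratins are read against the 66.1% of all protein-coding genes that were open. All 18 genes of the list of keratin anchors and partners had an open promoter. That list also held Krtcap2 and Krtcap3, which are named for keratinocytes, so the count is not of keratin partners alone. Jup, the desmosome and junction protein plakoglobin, had signals of 18.7 and 12.1, Evpl (envoplakin) of 7.55 and 5.76, and Tchp (trichoplein) of 7.33 and 7.12. Jup lies close to the type I cluster on chromosome 11. Of 15 other intermediate filament genes 12 were open (80%), led by Lmna with 12.7 and 8.84, Lmnb1 with 7.09 and 6.61, and Synm with 6.49 and 6.50, and Prph, Nefl and Bfsp2 had a peak in replicate 1 alone. Of 14 factors known to regulate keratin genes 13 were open (92.9%), led by Klf5 with 9.27 and 7.93, Gata3 with 9.84 and 6.94, and Grhl1 with 7.45 and 7.52. The exception was Trp63, the basal cell factor p63, with a peak in replicate 1 alone. Of 12 genes of the cornified envelope, the protein shell of epidermal cells, 4 were open (33.3%): Ivl, Tgm1, Sprr1a and Casp14, each with signals under 1.6. Lor, Flg, Sprr1b and Tgm3 were among the 6 without a peak. The medians of these lists were 2.81 for anchors, 1.84 for other intermediate filaments and 3.16 for factors, where the open keratins had 1.93. Of the urothelial markers, Gata3 was followed by the cadherin gene Cdh1 with signals of 6.67 and 4.47 and the uroplakin gene Upk2 with 5.27 and 3.68. The part of each cell type in the keratin values was not tested.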

How the data were processed

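DNase-seq was done on bladder tissue in 2 libraries of 1 group. Peaks carry a deposited signal, the authors' own density. The deposited FDR tracks hold q-values for stretches at or below 0.05. Footprint lists were used as positions. Each file was made from 1 library in mm10, per the notes deposited with each sample. The aligner, callers and signal scaling were not given in the sources used here.

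Peaks of the looser list that overlapped by at least 1 bp were joined, and regions with peaks of both libraries counted as shared. A promoter was the 1 kb on either side of every TSS in GENCODE M21, and the principal TSS is the 5'-most APPRIS principal one. A gene's signal is that of its strongest shared region by mean. Motifs were letters only. Named are all keratins with a promoter peak, the 10 strongest distal regions of each cluster, and from related lists up to 3 open genes by mean signal and up to 4 without a peak. The keratins and lists were chosen with earlier results of these data known. Alternatives were the stricter list, the stronger 50% of peaks, equal numbers of peaks, an overlap of 50%, windows of 500 and 2500 bp, flanks of 0 and 50 kb, unscaled signals, motif windows of 100 bp and each library alone. The labels number the libraries as biological replicates, but the number of animals in replicate 1 is not stated. Computations used Python 3.11.15, numpy 2.4.6, pandas 2.3.3, matplotlib 3.10.9, numba 0.67.0 and samtools 1.23.1, and the calling of open promoters was tested on simulated data.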

Additional observations from a re-analysis of the deposited data

How the results depend on the processing

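The count of 14 open keratins was 10 with principal starts only, 12 with the stricter peak list or a window of 500 bp, 13 with the stronger 50% of peaks, 14 with equal numbers of peaks or an overlap of 50%, and 16 with a window of 2500 bp. It was 15 without replicate 1 and 21 without replicate 2, which is 1.5 times the count of both. The share of all protein-coding genes that were open ran from 59.1% to 70.5% over these settings. With the stricter list the median promoter signal was 2.30 over fewer genes, and the type I cluster had 1.89 shared regions per 100 kb where the genome had 1.75, so that its excess over the genome nearly ended. With 1 library at a time the peaks per 100 kb were 3.88 and 6.91 in the type I cluster and 8.52 and 16.2 in the type II cluster, with 2.95 and 5.03 in the genome, the higher values without replicate 2. Footprints at keratin promoters were 41 without replicate 1 and 87 without replicate 2, where 23 were shared. Among single results, 137 of 157 values moved by less than the spread between the libraries or 1.5 times. Of 15 motif counts, 9 moved by more than 1.5 times with windows of 100 bp, which hold fewer bases. With 2 libraries of unknown depth, a peak missing from replicate 2 does not show that the site was closed. No paired analysis was possible because there was 1 group.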
